A study of Mus musculus with 12 samples.

Results

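Called sites that overlapped no listed peak were the subject here: stretches of mouse keratinocyte RNA whose N6-methyladenosine (m6A) signal was called as changed between day 0 and day 4, but which shared not even 1 bp on the same strand with any peak of either day. They were found by intersecting the authors' methylation table with both of the authors' peak lists, and numbered 583 of 2561 called sites. Of these, 495 were gains at day 4 and 88 were losses. The study used primary keratinocytes from the epidermis of newborn mice, grown on mitomycin C-treated 3T3 feeder fibroblasts, as undifferentiated cells at day 0 and as cells differentiated by a calcium shift at day 4. Each day had 3 input libraries of polyadenylated RNA and 3 libraries immunoprecipitated with an anti-m6A antibody. No genotype, transgene or drug separates the groups, and nothing in the labels ties a replicate to its own litter or culture, so every p-value below measures spread that may be technical. The deposited tables hold 1 value per site, peak or gene and none per library, so values per sample, replicate errors and library depth are unknown here.

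m6A is laid down on nascent mRNA by the Mettl3-Mettl14 methyltransferase, mostly where an adenosine sits in a GGAC-like context, and is densest around stop codons, in 3′ untranslated regions and in long internal exons. It is removed by Fto and Alkbh5 and read by proteins such as the Ythdf family, which shorten the life of mRNA, and the Igf2bp family, which lengthen it. Anti-m6A antibodies also bind the dimethylated adenosine that can stand as the first transcribed base next to the mRNA cap. A peak in this assay is a stretch where immunoprecipitated RNA exceeds input on one day. A differential call compares that enrichment between days, and its log fold change is written below as a methylation change.

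Letters of the RNA itself were at hand only at annotated transcript starts, so the sequences shown are the first 30 transcribed bases for members that cover such a start. In all, 22 gains and 0 losses covered the first 30 bases of a RefSeq start of their own gene, among 478 gains and 87 losses on chromosomes with a sequence table. The share was 4.60% for these gains and 6.70% for gains inside peaks (83 of 1239), so covering a start is not particular to sites outside peaks. The 8 with the lowest false discovery rate among spans of at most 1000 bp, chosen after their values were seen and with an unnamed cDNA clone passed over, are given 5′ to 3′ (RefSeq, GRCm38.p6), with the annotated first base of the transcript in capitals. Where transcription starts in these cells was not measured, and the Mpc2 site begins upstream of the annotated base.
Phb2: Gcacttccggtgccctttctcccgcgagct
Fam110c: Ctcgggcagggtggcgccggaacttaagta
Wdr18: Ggcagagcaagatggcggcgcccatggaag
Peo1: Ggagagtggtgacgcgaagctgggggcggg
Ddit4: Ggttggcaccagttcgctcacccttcgaga
Slc9a3r1: Agacgccgcgcagggcggggattggccggc
Ccdc43: Aggaccctgtccccagcatggcggcgccca
Mpc2: Agagccggggaagggcgccctagggcagag
These stretches lie at chr6:124712289-124712318 (Phb2, plus strand), chr12:31073968-31073997 (Fam110c, plus), chr10:79960152-79960181 (Wdr18, plus), chr19:45006558-45006587 (Peo1, plus), chr10:59951741-59951770 (Ddit4, minus), chr11:115163341-115163370 (Slc9a3r1, plus), chr11:102697696-102697725 (Ccdc43, minus) and chr1:165461260-165461289 (Mpc2, plus). The first base was A for 8 of the 22 and G for 13, against 34.4% A and 35.6% G over all 32851 starts of the table. GGAC, the core of the m6A context, stood in the first 50 transcribed bases of 8 of the 22, against 25 of the 83 for gains inside peaks and 18.9% of all starts, searched on the transcribed strand only. GGACT, which contains GGAC, stood in 1 of the 22, against 5.76% of all starts. A match is a description of these letters and no evidence of a modified base.

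The methylation table lists sites at a false discovery rate under 0.05. Its adjustment implies 36796 sites tested, of which 6.96% were called, 4.79% as gains and 2.17% as losses. Outside the peaks 84.9% of called sites were gains, against 64.1% of the 1978 called sites inside peaks. Seen from the other side, 28.1% of all gains and 11.0% of all losses lay outside every listed peak. Because the members were chosen from this comparison, their changes are described and not tested. The direction was read from sites that the selection left out. Of 419 called sites that overlap day 4 peaks only, 414 had positive values in the authors' deposited table, and of 119 that overlap day 0 peaks only, 90 had negative values.

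Sites outside peaks were short and their listed changes large. The median span was 50 bp, and 295 of 583 (50.6%) were 50 bp long, the smallest length in the lists, against 10.6% of gains and 1.41% of losses inside peaks. A longer site has more chance to touch a peak, so the selection itself favours short sites and nothing is read from that contrast. Of the listed peaks, 28.7% at day 0 and 30.2% at day 4 were 50 bp long. Among finite values in the authors' deposited table the median methylation change was 3.02 for gains (range 0.58 to 6.82, 357 sites) and -3.24 for losses (range -8.08 to -0.83, 62 sites). Inside peaks the medians in the authors' deposited table were 1.56 for gains and -0.80 for losses. No header or label gives the base of this logarithm, so the changes cannot be turned into folds. A further 138 gains and 26 losses were infinite in the authors' deposited table, 28.1% of the members, whereas 14 gains and 4 losses were infinite inside peaks. No header says how an infinite value arose. Peaks, calls and changes all rest on the same enrichment, so the selection bears on the size of the changes too. Nothing is read from the contrast in size, or in infinite values, with sites inside peaks. A false discovery rate under 0.01 was reached by 44.6% of gains and 29.5% of losses outside peaks (42.4% of the members). Inside peaks it was reached by 60.5% of gains and 49.0% of losses. The selection bears on the false discovery rate as well, so nothing is read from that contrast. Members under 0.01 had a median finite change of 2.97 if gained and -3.42 if lost (authors' deposited table). Since these lay close to the 3.02 and -3.24 of all members, no link between size and strength is read.

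**Figure D1:**
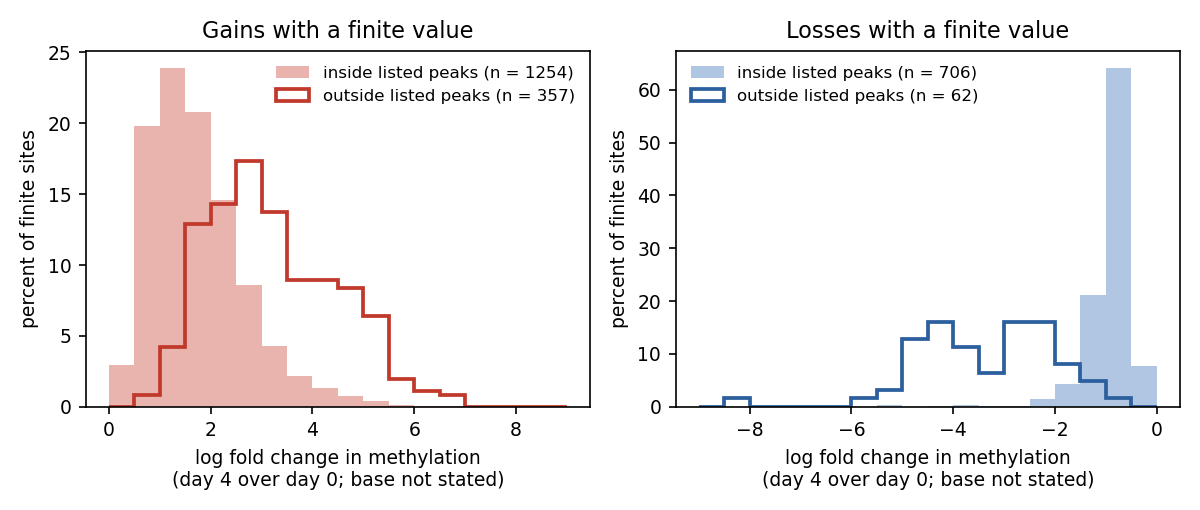
Finite log fold changes in methylation (x axis, day 4 over day 0, base not stated) as a percent of finite sites in each class (y axis), with sites inside listed peaks filled and sites outside outlined. Gains outside peaks centre on 3.02 against 1.56 inside, and losses on -3.24 against -0.80; 164 infinite values outside peaks are not drawn.

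At the edges of the selection, the members closest to a peak lay in Tuba4a, an alpha-tubulin (gap 47 bp), Chaf1b, a histone chaperone subunit (48 bp), and the protocadherin Pcdh1 (48 bp). Among called sites that touched a peak and lay in named genes, the one in Oaz1-ps shared the fewest bases (26 bp). An overlap of 50 bp or less was common, since 144 of the sites inside peaks were themselves 50 bp long, and Abcc10 and Acin1 (50 bp each) are examples of it. The members nearest the false discovery rate limit in the authors' deposited table were in Skap2 (0.0499, an infinite gain), Mtmr12 (0.0498, an infinite loss) and Tmem18 (0.0498, a methylation change of -4.17). No member adjoined a peak directly.

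Part of the members flanked listed peaks, while 307 of 583 lay more than 1000 bp from any. The gap to the nearest same-strand peak of either day had a median of 1288 bp (quartiles 249 and 9823 bp), and 169 sites (29.0%) lay within 300 bp of one, 139 gains and 30 losses. The nearest peak was a day 0 peak for 239 gains, a day 4 peak for 117 and equally far on both days for 139. For losses the counts were 24, 32 and 32. Within 300 bp the same split was 55, 34 and 50 for gains and 9, 13 and 8 for losses. The lists hold 19920 peaks at day 0 and 18423 at day 4. Sites that touch a peak were removed by the selection, and most gains that touch peaks of only 1 day touch day 4 peaks. Nothing is therefore read from these splits. Distances run along the genome and include introns. On the other strand a peak overlapped 1 member.

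**Figure D2:**
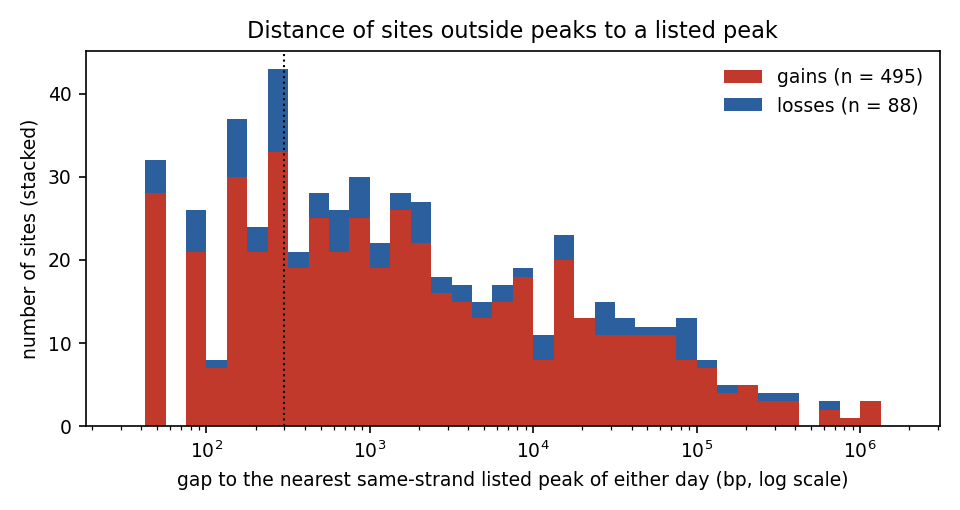
Gap from each of 495 gains and 88 losses to the nearest same-strand listed peak of either day (x axis, bp, log scale) against the number of sites (y axis, stacked), with a dotted line at 300 bp. The smallest gap is 47 bp, 169 sites lie at or left of the line, and the widest gap is 1276079 bp.

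Most members belonged to transcripts that carried listed peaks elsewhere. They lay in 539 genes, and 498 of 583 sites (85.4%) were in genes with a peak: 433 in genes with peaks on both days, 42 in genes with day 0 peaks only and 23 in genes with day 4 peaks only. The other 85 sites, 70 gains and 15 losses in 80 genes, were in genes with no listed peak at all. Inside peaks 1 called site was named for such a gene. A site that overlaps a peak mostly shares its gene, so nothing is read from that contrast. These 85 sites had smaller finite values than the members as a whole in the authors' deposited table, with a median of 2.37 for gains and -2.14 for losses. Their genes in the expression table had a median mean normalized count of 580, against 1086 for the genes of all members. By RefSeq type 575 members were in protein-coding genes, 6 in long noncoding RNA genes and 1 in a gene of another type, and 1 had no match.

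Ifrd1, a transcriptional coregulator, held 5 members, more than any other gene, and had no listed peak on either day. Its sites had methylation changes of 4.33, 3.60 and 4.58 in the authors' deposited table, and 2 more were infinite gains. The lowest false discovery rate among them was 7.4e-11, at chr12:40204418-40207079 on the minus strand, 1289 bp before the annotated 3′ end. The member nearest the annotated 5′ end began 49 bp after it. The nearest same-strand peak, which is named for another gene, was 92150 bp away from the closest of them. Ifrd1 fell in expression in the authors' deposited table (log2 fold change -1.19, SE 0.13, mean normalized count 1472).

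Histone H1.4, Hist1h1e, packs linker DNA between nucleosomes and also had no listed peak. Its site at chr13:23621826-23622021 had a methylation change of 5.17 in the authors' deposited table, with a false discovery rate of 2.1e-11. Mesdc1, another gene without peaks, had 2.14 in the authors' deposited table (false discovery rate 2.3e-11). The tight junction gene Cldn7, with no listed peak either, gained 3.19 at a site that ends 48 bp from the annotated 3′ end (false discovery rate 0.00158, authors' deposited table). Histone genes form a family of closely related copies, and the sources used here do not say how reads shared between copies were counted.

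The largest finite gains lay in genes of varied function. They were in Phlda3 (6.82), a p53 target that restrains Akt, the transcription factor Pax2 (6.64), the inducible heat shock gene Hspa1a (6.54), Flad1 (6.22), which makes the cofactor FAD, and the actin capping subunit Capzb (6.16) in the authors' deposited table. The matrix protease inhibitor Timp2 (6.13), Zfp598 (6.08), the calcium sensor Hpcal1 (5.76), the MAP kinase phosphatase Dusp1 (5.71) and the helicase Recql5 (5.69) followed in the authors' deposited table. The strength of these calls varied widely, from a false discovery rate of 3.2e-05 at Hspa1a to 0.0451 at Timp2 in the authors' deposited table. All 10 of these genes had listed peaks on both days, and 8 of the sites lay within 500 bp of one; the exceptions were Capzb and Recql5. The Timp2 site was 248 bp from a day 4 peak but 51423 bp from the nearest day 0 peak.

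The 6 gains with the lowest false discovery rates include Hist1h1e and Mesdc1, described above, and 4 in genes with peaks on both days. Sprr1b, a cornified envelope precursor, had a 98 bp site at chr3:92437242-92437339 with a methylation change of 4.52 in the authors' deposited table (false discovery rate 1.4e-27), 95 bp from peaks of both days. Asprv1, the retroviral-like protease that processes filaggrin, followed with 2.51 in the authors' deposited table (5.0e-20). The giant scaffold Ahnak had 4.07 (3.6e-17) and the mitochondrial prohibitin Phb2 5.26 (1.4e-14) in the authors' deposited table. The Phb2 site, at chr6:124712289-124712484, began on the annotated first base of the gene, at the sequence printed above.

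Of the 88 losses, 67.0% were 50 bp long. The membrane protein gene Snn had the largest finite loss, -8.08 at a 50 bp site in the authors' deposited table (false discovery rate 1.1e-04), 98 bp from a day 4 peak and 737 bp from a day 0 peak. The ubiquitin ligase Mul1 (-5.90), the DNA end resection factor Rbbp8 (-5.46), the phosphatase inhibitor Arpp19 (-5.16), Zfp322a (-4.96) and Lace1 (-4.96) came next in the authors' deposited table. Gid4 (-4.95), which recognises degradation signals for a ubiquitin ligase, Asrgl1 (-4.91), the lipid phosphatase Lpin2 (-4.91) and the proteasome assembly factor Psmd10 (-4.80) closed the 10 largest in the authors' deposited table. Of these 10, 9 were 50 bp long. The lowest false discovery rate of a loss belonged to Glrx, a glutaredoxin that reduces disulfides (-1.85, 2.7e-11, authors' deposited table). Glrx had peaks at day 4 only and rose in expression in the authors' deposited table (log2 fold change 2.24, SE 0.13). The other leading losses were in Zfp91 (infinite, 1.3e-06) and Ttc23 (-1.84, 2.8e-05) in the authors' deposited table.

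Infinite values also occurred in abundant transcripts. Among infinite gains, the genes with the highest means in the authors' deposited table were Dsp, the desmosome plaque protein desmoplakin (mean normalized count 87197), the small GTPase Ralb (9304) and Plekha1 (6957, 2 sites). Wdr26 (5859), Bcar3 (4988), the ribosomal protein Rps6 (4935) and the nuclear pore protein Ranbp2 (4074) followed in the authors' deposited table. Each had listed peaks on both days, and the infinite sites lay 100 to 699 bp from one. The nuclear paraspeckle RNA Neat1 (a mean of 99348 normalized counts in the authors' deposited table) held an infinite loss at chr19:5832000-5832049 and a second loss of -2.15. Inside its peaks Neat1 had 3 called sites, all gains, at 1.64, 1.65 and an infinite value in the authors' deposited table. Dtx4, Dip2a and Ero1l held the other infinite losses with the highest means, and Dip2a and Ero1l had no listed peak.

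In 503 genes there was 1 member, in 30 there were 2, and in 6 there were 3 or more. Hspa1a had 3 gains (6.54, 3.59 and 3.70 in the authors' deposited table), with 3 called sites inside its peaks that were gains as well (1.20, 3.28 and 1.64). Its near-identical copy Hspa1b held 2 gains, and reads shared by the copies make the assignment of both genes uncertain. Asprv1 held 3 gains (2.51, 1.28 and 2.06) around its single listed peak of each day, whose own site gained 1.60 in the authors' deposited table. Bcl11b, a transcription factor of skin and lymphoid development, had gains of 1.69, 1.87 and 2.25 in the authors' deposited table, all within 1395 bp of a peak. The cytolinker plectin, Plec, had 3.33, 2.76 and 3.24 in the authors' deposited table and 8 called sites inside its peaks, all gains. The plakophilin relative Pkp4 had 2.24, 2.50 and an infinite gain in the authors' deposited table, and 2 of these have ends 53649 and 51623 bp apart on the genome. Of the 539 genes, 112 also had a called site inside a peak. For 65 genes both were gains, for 31 the member was a gain and the inside site a loss, for 6 the reverse, for 5 both were losses, and for 5 a gain stood beside inside sites of both directions. Plxna3 and Tmem199 each held a gain and a loss among the members.

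By position, a larger share of gains than of losses lay close to the ends of genes, at 3′ ends only within the shorter distances examined. Distances were taken from the site's edge on that side, and a site reaching past the annotated end was counted as within. Within 300 bp of the annotated 5′ end of the gene lay 87 of 495 gains (17.6%) and 2 of 87 matched losses (2.30%). Gains inside peaks were there in 17.0%, losses inside peaks in 4.94%, and all listed peaks in 5.85% (day 0) and 7.53% (day 4). Within 300 bp of the 3′ end lay 100 gains (20.2%) and 3 losses (3.45%), against 30.2% and 12.0% inside peaks, and 13.7% and 15.6% of all day 0 and day 4 peaks. Within 1000 bp of the 3′ end the shares were close, 31.7% of gains (157 of 495) and 27.6% of losses (24 of 87), whereas at the 5′ end they were 23.0% and 5.75%. With spans over 1000 bp left out, 15.1% of gains and 2.53% of losses outside peaks were near the 5′ end, against 11.0% and 2.89% inside. Sites are not replicates and share transcripts, so these shares carry no test. Infinite gains were near the 5′ end in 7.25% and finite gains in 21.6%. Gains near the 5′ end had a median finite change of 3.23, gains near the 3′ end 2.81 and gains in neither 3.03, in the authors' deposited table.

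**Figure D3:**
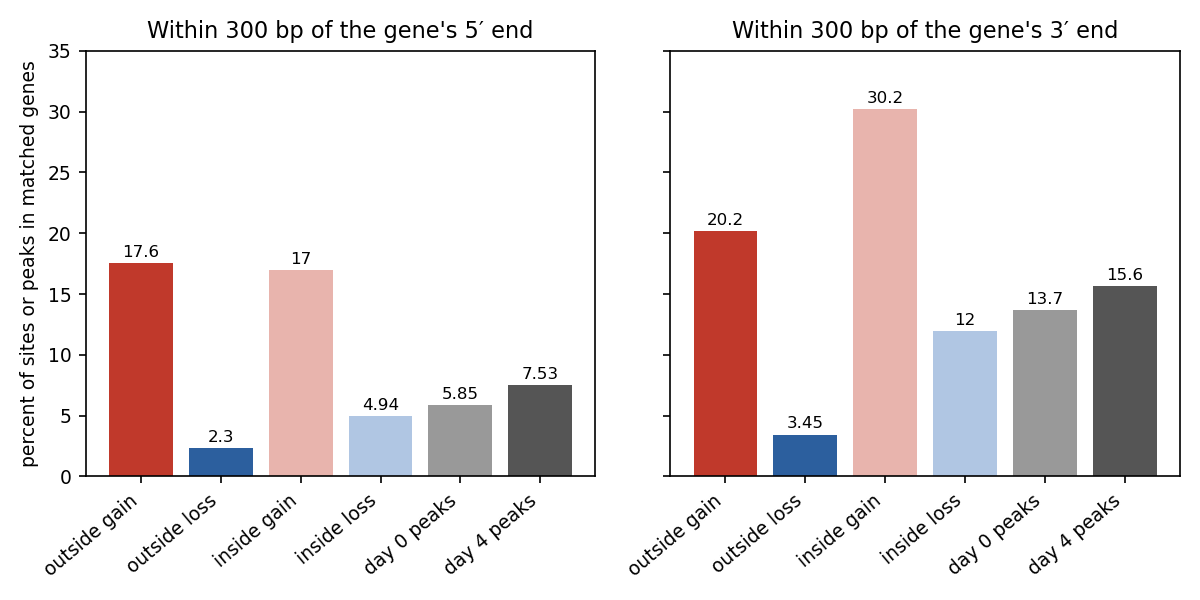
Percent of sites or peaks (y axis) that lie within 300 bp of the annotated 5′ end (left) or 3′ end (right) of their RefSeq gene, for gains and losses outside and inside listed peaks and for all peaks of each day. Gains outside peaks reach 17.6% at 5′ ends, against 2.30% of losses outside peaks and 5.85% and 7.53% of all peaks. Sites or peaks that reach past the annotated end are counted as within.

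Several named members lay at or close to an annotated 5′ end. Fos, an AP-1 transcription factor, held a site that began 11 bp after its annotated start (2.53, false discovery rate 1.5e-10, authors' deposited table). Ddit4, an inhibitor of the growth kinase mTORC1, held a 50 bp site on its first bases (2.49, 0.00207, authors' deposited table). Dsp held a site from its first base (3.55, 0.0438, authors' deposited table), apart from the infinite gain near its 3′ end. Atf4, the transcription factor of amino acid stress, had a site 346 bp after its start (4.16, 0.0279, authors' deposited table).

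Expression of the genes that hold the sites is set beside the methylation values here. Both comparisons come from the same cells, and an enrichment over input shares the input libraries with the expression comparison, so their directions are given side by side and nothing is read from their match. For expression, 53.5% of an implied 14924 genes were called, 27.1% as higher and 26.4% as lower at day 4. Of the 456 genes with a gain outside peaks, 314 were listed, 117 higher and 197 lower at day 4, and their median log2 fold change was -0.44 (authors' deposited table). Of the 85 genes with a loss outside peaks, 60 were listed, 47 higher and 13 lower, with a median of 0.53 in the authors' deposited table. Inside peaks the order was the other way: genes with gains had a median of 0.40 (461 higher, 289 lower) and genes with losses -0.39 (160 higher, 250 lower) in the authors' deposited table. For 175 members, 150 gains and 25 losses, the gene was not in the expression table, which means it was not called or not tested. The median mean normalized count was 1218 for listed genes with a gain outside peaks and 764 with a loss, against 1855 and 998 inside peaks and 509 over the whole table. The share of called sites that lay outside peaks was 28.2% for genes with means from 100 to 1000, 21.5% from 1000 to 10000 and 10.8% above, in the authors' deposited table. Genes with means under 100 are not given here, so no trend over the whole range is read.

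**Figure D4:**
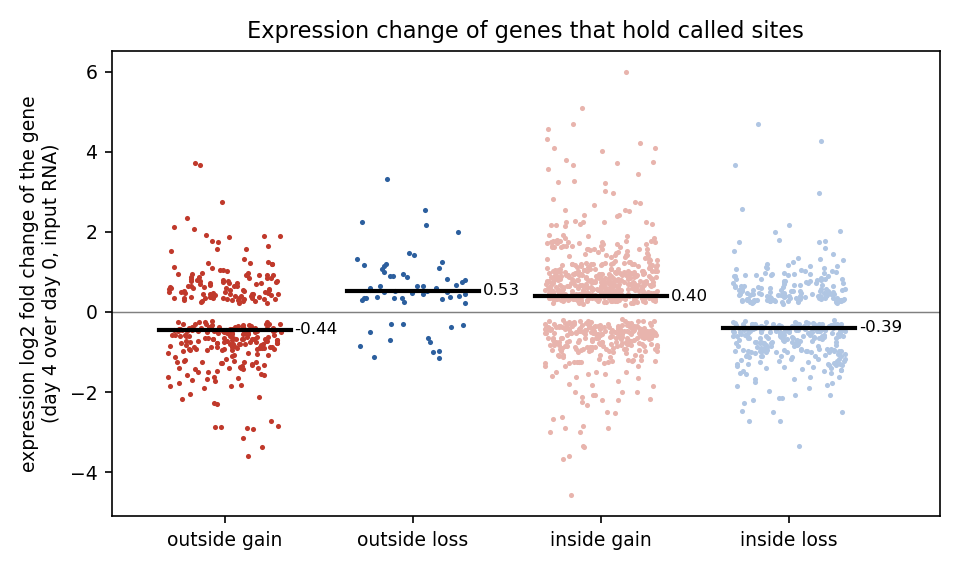
Expression log2 fold change of each listed gene (y axis, day 4 over day 0, input RNA) for genes with gains or losses outside and inside peaks (x axis), 1 point per gene and class, with the median as a bar. Medians are -0.44 and 0.53 for gains and losses outside peaks, and 0.40 and -0.39 inside; values near 0 are absent because the table lists called genes only.

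Within 21 gene lists of keratinocyte biology (462 genes), 36 genes held 41 members, 40 of them gains and 1 a loss, and 16 lists had at least 1. Over all members 84.9% were gains. No basal layer, EGF receptor, Notch, cholesterol synthesis or translation factor gene held a member, although these 5 lists had 5, 2, 5, 9 and 4 genes with called sites inside peaks. Of all called sites, 22.8% lay outside peaks.

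Cornified envelope genes, whose products are cross-linked beneath the membrane of dying surface cells, had 4 of 24 genes with a member, all gains. Besides Sprr1b these were Sprr3 (2.32), Sprr2h (1.72) and involucrin, Ivl (1.34), in the authors' deposited table. Ivl rose in expression (log2 fold change 3.67, SE 0.12), while Sprr3 (-0.79, SE 0.18) and Sprr2h (-1.36, SE 0.13) fell, in the authors' deposited table. Inside peaks Ivl had a site of 0.36 and another of -0.56 in the authors' deposited table, so its 3 called sites differed in direction. Sprr genes have close copies and their reads may be shared. In the spinous layer list 2 of 19 genes had gains, Krtdap (1.42) and the transcription factor Maf (2.22), in the authors' deposited table. Of 17 barrier lipid genes, 2 had gains: the lipid transporter Abca12 (2.58) and the lipase Lipm (1.42), in the authors' deposited table. Abca12 also had a called site inside a peak, which was a loss of -1.31 in the authors' deposited table.

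Over all lists 36 of 462 genes held a member. The lists of cell cycle, Myc and ribosome biogenesis, and m6A genes had 2 such genes each, of 30, 18 and 21. In the cell cycle list 2 of 30 genes had gains, cyclin D1 (Ccnd1, 2.09, false discovery rate 7.3e-07) and topoisomerase Top2a (2.45, 1.1e-04), in the authors' deposited table. Their expression fell by 3.37 (SE 0.11) and 2.88 (SE 0.12) on the log2 scale in the authors' deposited table. The nearest peaks of the Ccnd1 site were 150 bp away at day 0 and 1498 bp at day 4, and those of the Top2a site 49 and 7768 bp. In the Myc and ribosome biogenesis list the rRNA methyltransferase fibrillarin (Fbl, 3.85) and Rrp9 (2.30) had gains in the authors' deposited table. Neither Myc nor Pvt1, the long noncoding RNA in the study's title, held a member. The called site of Pvt1 (-1.19 in the authors' deposited table) overlaps a day 0 peak by 50 bp. Of the m6A machinery, 2 of 21 genes held gains: the eraser Alkbh5 (2.86) and the reader Igf2bp2 (4.27 and an infinite gain, 500 and 1350 bp from its 3′ end), in the authors' deposited table. Inside peaks this list had 2 gains and 6 losses in 7 genes, whereas 64.1% of all called sites inside peaks were gains. With so few sites in 1 of 21 lists, nothing is read from that difference.

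The heat shock list had the most members of the 21, with 6 gains in 3 of 23 genes, and inside peaks it had 15 gains and 0 losses. Over all lists 36 of 462 genes held a member, and 64.1% of all called sites inside peaks were gains. Of the 6 members, 3 were in Hspa1a and 2 in its near-identical copy Hspa1b. Reads shared by these copies may be counted in both, so the rank of this list is uncertain. Apart from the Hspa1a and Hspa1b sites, Hsp90aa1 held the sixth (2.61 in the authors' deposited table, chosen after its value was seen). Among AP-1 and immediate early genes 3 of 15 had gains: Fos, Dusp1 and the zinc finger factor Klf6 (3.91 in the authors' deposited table). Fos fell (-1.84, SE 0.16) and Dusp1 rose (1.88, SE 0.14) in expression in the authors' deposited table. The amino acid stress and antioxidant list had gains in Ddit4, Atf4 and the peroxidase Gpx1 (3.18 in the authors' deposited table). Atf4 (-1.63, SE 0.10) and Gpx1 (-0.42, SE 0.13) fell in expression in the authors' deposited table.

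Among structural and signalling genes, the matrix and TGF-beta list had 4 of 24 genes with a member. Among them the signal transducers Smad2 (3.03) and Smad7 (1.81) gained, and fibronectin, Fn1 (-2.98), lost, in the authors' deposited table. Fn1 had a listed peak at day 4 only and rose in expression (1.07, SE 0.14, authors' deposited table). Junction genes had Dsp and Cldn7, and the actin list had Capzb and the myosin light chain Myl12a (1.02, false discovery rate 0.0497, authors' deposited table). The glycolysis list had hexokinase Hk2 (3.15 in the authors' deposited table), whose called site inside a peak was a loss of -1.16. Timp2 stood for the lysosome and protease list and Phlda3 for the p53 targets. Cytosolic ribosomal proteins had 2 of 48 genes with a member, Rps6 and Rpl27 (1.49 in the authors' deposited table), against 28 genes with called sites inside peaks, all gains.

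**Figure D5:**
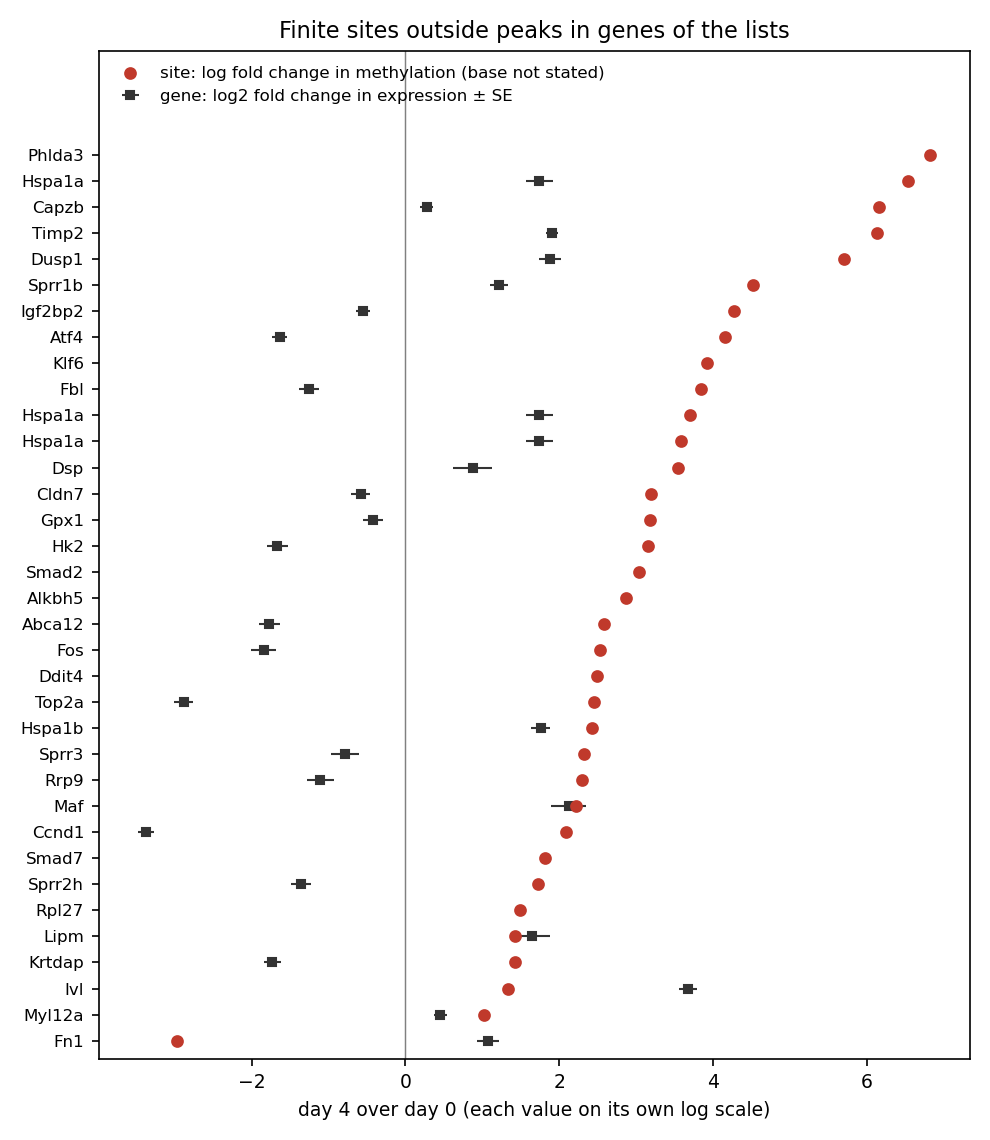
Finite sites outside peaks in genes of the lists (1 row per site, at most 4 sites per list), with the log fold change in methylation (red circles, base not stated) and the gene's expression log2 fold change with its SE (black squares, where listed); both are day 4 over day 0 on their own scales. Of the 35 sites drawn, Fn1 alone lies below 0 in methylation, and expression lies on both sides of 0.

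Markers of the labelled cell type were abundant. All 7 keratinocyte markers were in the expression table, with mean normalized counts from 3145 to 209477. Of 13 fibroblast and feeder markers 5 were listed, with means from 50.9 to 1187, of 8 melanocyte markers 2, and of 8 immune or endothelial markers 3. A marker that was not listed was not called or not tested, so its abundance is unknown here. The share of feeder or other cells cannot be read from these counts. None of these other markers held a member, and 2 sites lay in a keratinocyte marker, both in Dsp. The 4 fibroblast markers higher at day 4 and 1 lower were not tested for a part in the sites described.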

How the data were processed

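HISAT2 2.1.0, DESeq2 1.18.1 and the mm10 build are listed per the submitters' processing notes. For peak calling and the methylation test the tool is not given in the sources. Per the file headers, the authors' peak lists hold an enrichment score and a p-value per peak. The authors' expression table holds a mean normalized count (a signal over the compared libraries), a log2 fold change, its SE, a test statistic (a score), a p-value and an adjusted p-value. For each site the authors deposited a log fold change of unstated base, used here as a score, with a p-value and false discovery rate. Both tables hold rows under 0.05 only.

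Overlap was computed in Python 3.11.15 (numpy 2.4.6, pandas 2.3.3, scipy 1.17.1; figures in matplotlib 3.10.9), counting both ends, since 390 peaks begin on a RefSeq 5′ end and 0 begin 1 bp before it. The code was tested on simulated data. The number tested was derived from the false discovery rate, p and rank. Expression was read as day 4 over day 0 because 466 of 497 listed genes with day 4 peaks only were positive. Genes were matched by symbol to RefSeq GRCm38.p6 (2553 of 2561 sites). No sequence table covers chromosome 18, and motifs elsewhere in the sites were not analysed here.

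Members and lists were chosen with earlier results of these data known. Named sites, leaving out predicted genes, were the 10 largest finite gains and losses, the lowest false discovery rates (6 gains, 4 losses), infinite values in the most abundant genes (8 gains, 4 losses), genes with 3 or more sites or both directions, up to 4 per list, and sites beside the thresholds. Alternatives were other overlap, distance, span and threshold rules. The site of 1 listed gene is not reported here.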

Additional observations from a re-analysis of the deposited data

How the results depend on the processing

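In all, 87 values were recomputed. For the counts, the share of gains and the medians, 50 values stayed and 19 moved. For the other shares 14 stayed and 4 moved. A count moved if it changed by more than 1.5 times, and a share or median if it left its 95% interval. That interval was computed over sites as if they were independent, although sites share transcripts. It serves here only as a yardstick and measures no spread between replicates. Gains and losses were split by sign, so no sign could change. The number of sites (583), of gains (495) and of losses (88) stayed within 1.5 times under an overlap on either strand, a distance of 100 bp, peaks at p under 1e-05, spans up to 1000 bp, genes in place of sites, the other coordinate convention and finite values only. Where sites with under 0.5 of their length in peaks counted as outside, there were 927 sites and 195 losses, 79.0% of the sites were gains, and the medians were 2.48 and -1.15. More than 1000 bp from a peak lay 307 sites, 264 gains and 43 losses. At a false discovery rate under 0.01 there were 247 sites, 221 gains and 26 losses (89.5% gains). Outside day 0 peaks alone were 1002 sites and 909 gains (90.7%), with a median gain of 2.59. Outside day 4 peaks alone were 178 losses, with 74.6% gains and a median loss of -1.84. These settings select other sites by their construction. Near meaning 100 or 1000 bp gave 10.1% or 20.4% of members at 5′ ends and 12.0% or 31.1% at 3′ ends. Overlap of exon blocks was not run, since the files give only start and end. No paired analysis was possible because the tables hold no value per library, and no replicate could be left out.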
